A study of Mus musculus with 13 samples.

Results

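The CXC chemokines of the mouse lung were described here by the cell classes that held their RNA and by how that RNA was spread over libraries. The members are Cxcl1, Cxcl2, Cxcl3, Cxcl15, Cxcl9, Cxcl10, Cxcl12, Cxcl13, Cxcl14 and Cxcl16. They were taken by gene symbol, 10 of the 31053 genes in the deposited matrix. Their counts were read in the 20856 of 37344 barcodes that belonged to libraries 1, 2, 3 and 7 and had at most 10% of their UMIs in mitochondrial genes. A UMI, or unique molecular identifier, marks 1 captured RNA molecule. All 10 members had at least 50 UMIs and entered every count over members.

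Single-cell RNA of whole mouse lung was measured, and the study compared lung eosinophils between asthma and emphysema. By the labels, 4 samples had the titles Asthma, Control, PPE-emphysema and PPE-recovery, and the methods describe 1 mouse for each. Ovalbumin was the sensitizing agent of the asthma model, and PPE is porcine pancreatic elastase, an enzyme that breaks down elastic tissue. By the methods it was instilled into the airways week by week in the emphysema model and in a single instillation in the recovery model. The other 9 samples were 3 of acute injury, 3 of control and 3 of emphysema, and no file of theirs was analysed here. The methods name wild-type C57BL/6 mice, and the labels give neither strain nor age.

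The barcodes carried 7 library numbers, and nothing ties a number to a labelled group. All libraries were read as parts of 1 sample, no condition was compared and no test was run. A difference between libraries therefore cannot be told apart from a difference between mice, treatments or handling.

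The 4 libraries held 4800, 7626, 5129 and 3301 cells, in the order 1, 2, 3 and 7, with median depths between 6800 and 8363.5 UMIs per cell. Between 3 and 15 barcodes were shared by any pair of them. Libraries 4, 5 and 6 were not used: their Hbb-bs, a hemoglobin gene, was at 158499 to 200045 CPM (UMIs of the gene per 1000000 UMIs), and Sftpc, the surfactant gene that defines alveolar type 2 cells of the lung, was at 0 to 0.0646 CPM. Clusters were named from marker genes, so a class name such as neutrophil stands for cells with the markers of neutrophils. In all, 57 of 75 clusters and 19997 cells took a name, in 33 classes. The members were left out of the genes used for clustering.

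Chemokines are small secreted proteins that guide leukocytes along a gradient, and the CXC family is named for the spacing of its conserved cysteines. Members with a glutamate-leucine-arginine (ELR) motif, such as Cxcl1, Cxcl2 and Cxcl3, attract neutrophils through the receptor CXCR2. Cxcl9 and Cxcl10 are induced by interferon and attract T cells and NK cells through CXCR3, whereas Cxcl12, Cxcl13, Cxcl14 and Cxcl16 are made in many tissues at rest and help to hold or place leukocytes there.

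Of the members, 7 lie on mouse chromosome 5. Cxcl3 (chr5:90786103-90789600, plus strand), Cxcl15 (chr5:90794534-90803067, plus), Cxcl1 (chr5:90891241-90893115, plus) and Cxcl2 (chr5:90903871-90905938, plus) are neighbors in the GRCm38 annotation of GENCODE M21. Cxcl10 (chr5:92346638-92348889, minus), Cxcl9 (chr5:92321347-92328079, minus) and Cxcl13 (chr5:95956951-95961068, plus) lie farther along. Cxcl12 is on chromosome 6, Cxcl14 on chromosome 13 and Cxcl16 on chromosome 11.

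The stretches printed next lie upstream of the start sites of the 4 neighbors and of Cxcl10, from RefSeq on GRCm38.p6, and are shown because the neighbors differ in the cells that held their RNA. Capitals mark GGAATTTCC, a form of the element bound by NF-kB, in Cxcl1, Cxcl2 and Cxcl3. In Cxcl10 they mark, in this order, GAAANNGAA, the core of the element bound by interferon regulatory factors, the reverse complement of GGAATTTCC, and GGGNNTTCC, another form of the NF-kB element.
Cxcl1 (chr5:90891125-90891214, plus strand): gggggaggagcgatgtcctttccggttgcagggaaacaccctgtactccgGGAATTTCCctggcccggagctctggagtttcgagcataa
Cxcl2 (chr5:90903779-90903868, plus strand): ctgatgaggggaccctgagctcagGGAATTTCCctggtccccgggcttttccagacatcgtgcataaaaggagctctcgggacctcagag
Cxcl3 (chr5:90785981-90786070, plus strand): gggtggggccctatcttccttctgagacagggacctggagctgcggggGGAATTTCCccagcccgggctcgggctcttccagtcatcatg
Cxcl15 (chr5:90794414-90794503, plus strand): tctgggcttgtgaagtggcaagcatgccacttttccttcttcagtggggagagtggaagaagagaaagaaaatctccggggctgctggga
Cxcl10 (chr5:92348980-92349109, minus strand): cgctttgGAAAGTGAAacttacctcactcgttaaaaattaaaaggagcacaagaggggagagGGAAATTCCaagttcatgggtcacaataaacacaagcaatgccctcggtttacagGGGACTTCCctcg
The motifs were searched on both strands of the 250 bases upstream of each start site. GGAATTTCC was present in 94 of 32851 promoters (0.286%), and it began at position -70 of Cxcl1, -96 of Cxcl2, -72 of Cxcl3 and, on the other strand, -158 of Cxcl10. It was absent from this window of Cxcl15, the neighbor that lies between Cxcl3 and Cxcl1. GAAANNGAA was present in 7.13% of all promoters, at -213 of Cxcl10, -175 of Cxcl9 and -172 of Cxcl14. GGGNNTTCC was present in 4.98%, at -103 of Cxcl10 and at -130 and -42 of Cxcl9, and none of its matches in members overlapped those of GGAATTTCC. These are matches of letters only, over the 9 members with an entry.

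**Figure D1:**
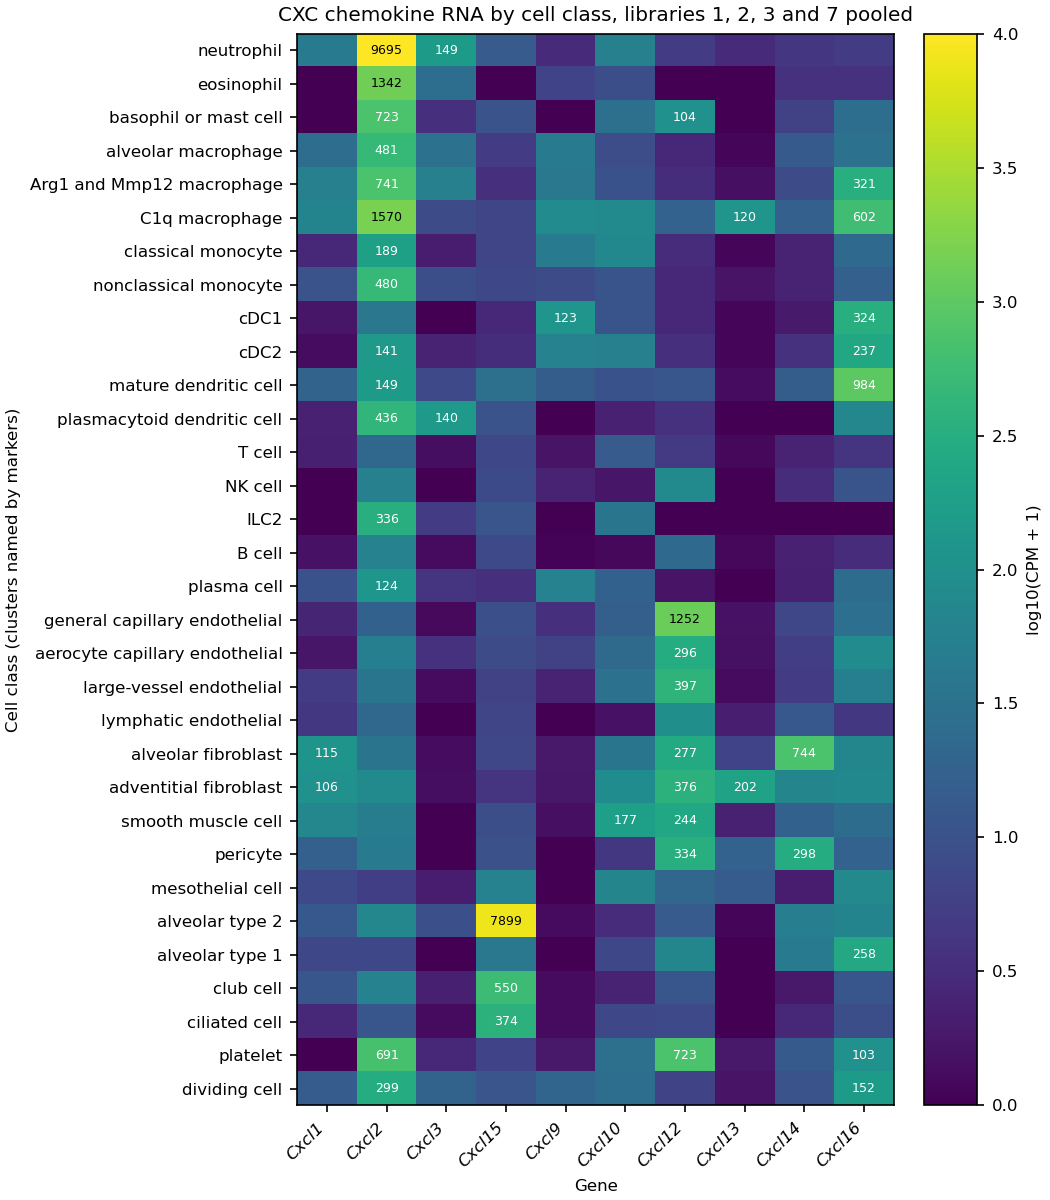
Level of each member (columns) in each named cell class (rows), as the color of log10(CPM + 1) over the pooled UMIs of libraries 1, 2, 3 and 7, with CPM printed in the cells at or above 100. Cxcl2 reached 9695 CPM in neutrophils and Cxcl15 reached 7899 CPM in alveolar type 2 cells, while Cxcl1, Cxcl9 and Cxcl10 stayed under 200 CPM in every class shown.

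The ELR chemokines did not share 1 source. By pooled value over the named classes, Cxcl2 was highest in neutrophils, Cxcl15 in alveolar type 2 cells and Cxcl1 in alveolar fibroblasts. The highest class of Cxcl1 differed between libraries, however. Cxcl3 was near equal by pooled value in neutrophils and plasmacytoid dendritic cells, but all its UMIs in the latter were in 1 cell. Of the 10 members, 2 met the rule for restriction, which asks that the highest named class has at least 4 times the CPM of the next. These were Cxcl2 and Cxcl15. Over all genes with at least 50 UMIs the same rule was met by 9.18%. Whether 2 of 10 differs from that share was not tested.

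Cxcl2, which recruits neutrophils, was at 9695 CPM in the 1377 neutrophils (95% interval 9599 to 9792). All such intervals are exact Poisson or binomial ones and cover counting error only. By library, Cxcl2 in neutrophils was at 10772 CPM in library 1, 9668 in library 2, 8739 in library 3 and 10793 in library 7. The 4 libraries thus lay close together, and no single cell gave more than 9.08% of the UMIs of any of them. Between 88.5% and 91.2% of neutrophils had a Cxcl2 UMI.

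The next class was the C1q macrophages, which carry the complement genes C1qa to C1qc, with 1570 CPM over 810 cells. Their Cxcl2 was at 1250, 1511, 2721 and 1600 CPM in libraries 1, 2, 3 and 7. Library 3 was the highest, and even there the level was below that of neutrophils in every library. In the Arg1 and Mmp12 macrophages, Cxcl2 was at 626 CPM in library 1, 2084 in library 2 and 555 in library 7. In alveolar macrophages it was at 492, 437, 722 and 311 CPM.

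When each cell was thinned to 1000 UMIs, 86.5% of neutrophils and 40.1% of C1q macrophages had a Cxcl2 UMI, against 1.32% of B cells, a class not known for this gene. Unthinned, the shares were 90.4%, 57.4% and 4.56%, at median depths of 2778, 10353 and 4098 UMIs. Thinning left out 49, 34 and 13 cells of these classes. To set Cxcl2 beside free RNA from neutrophils, it was counted per 1000 UMIs of S100a8, a gene that neutrophils carry in large amounts. That ratio was 201 in neutrophils and 167 in B cells, but 11885 in C1q macrophages, 4619 in alveolar macrophages, 9441 in classical monocytes and 19227 in mature dendritic cells. These macrophage, classical monocyte and mature dendritic cell values were thus far above the ratio of the neutrophils themselves. That of B cells was near it, but other classes with little Cxcl2 lay above it as well. T cells were at 522, alveolar fibroblasts at 414 and smooth muscle cells at 1267. The part of free RNA in these values was not tested. Further classes lay on both sides of the neutrophil ratio. Large-vessel endothelial cells at 158 and lymphatic endothelial cells at 166 lay below it. Nonclassical monocytes at 276, plasmacytoid dendritic cells at 396 and Arg1 and Mmp12 macrophages at 8928 lay above it. In plasmacytoid dendritic cells, 1 cell gave 99.3% of the Cxcl2 UMIs of library 2. The mature dendritic cell ratio rests on 22 S100a8 UMIs, and 1 cell gave 68.7% of their Cxcl2 UMIs in library 3.

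The class named eosinophil here held 263 mostly shallow cells led by Ccr3 and Alox15, with a median of 572 UMIs. It need not match the eosinophils of the paper, which names Epx, C1qa, Ms4a7, C3ar1 and Ctsl among the genes they expressed. The paper also reports Ccr3, Il5ra, Epx, Prg2 and Alox15 as high in its eosinophil clusters. These are the 5 genes of the eosinophil marker list here. It further compared those clusters with sorted eosinophils and with staining for the eosinophil protein ECP. Of the genes named first, C1qa, Ms4a7 and C3ar1 belong to the marker list of the C1q macrophages here. Ctsl was among the leading genes of the Arg1 and Mmp12 macrophages. In this eosinophil class, Cxcl2 was at 4856 CPM in the 33 cells of library 1 and at 1390 CPM in the 218 cells of library 7. All 7 neutrophil markers were detected in both libraries, summing to 163761 and 99306 CPM, and in neutrophils the same sum was between 119435 and 134883 CPM. Of the 5 eosinophil markers, 4 were detected in library 1 and all in library 7, and they summed to 1712 and 1925 CPM in the eosinophil class and to at most 8.38 CPM in neutrophils. Per 1000 S100a8 UMIs, Cxcl2 in eosinophils was 19.8, below the 201 of neutrophils. This pooled ratio includes 2 deeper cells of library 2 and 10 of library 3, with medians of 6097 and 7593.5 UMIs. The part of neutrophil RNA in the eosinophil value was not tested.

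An unnamed group of 138 cells, with Ccl4 and Csf1 among the leading genes of its main parts and 109 of its cells in library 7, held Cxcl2 at 9987 CPM, near the level of neutrophils. It also held 278 CPM of Cxcl3 and 573 CPM of the receptor Cxcr2. These pooled values mix unlike parts. A part of 20 cells, with Cidec and Acaa1b among its leading genes, had a median of 16457.5 UMIs, against 2445 and 2043 in the main parts. In these parts the marker list of neutrophils scored highest, but none of them met the rule for a name. The group was therefore left out of the class comparison.

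Cxcl15, also called lungkine, is a mouse chemokine of the lung epithelium. Alveolar type 2 cells, which make surfactant, held 92.8% of its UMIs and were 1.96% of the cells. Cxcl15 in these cells was at 8885 CPM in library 1, 7944 in library 2, 7845 in library 3 and 6490 in library 7. Between 96.6% and 98.1% of the alveolar type 2 cells had a UMI in each library, so that both the level and the share were alike over libraries.

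Airway epithelium held Cxcl15 at lower levels. In club cells, the secretory cells of the airway, it was at 836 CPM in library 1, 556 in library 2 and 362 in library 3. In ciliated cells it was at 481 CPM in library 2, 197 in library 3 and 26.6 in library 7. The last value came almost whole from 1 cell, which gave 93.8% of the UMIs, and in library 2 a single cell gave 37.5%. These 3 libraries held 832 of the 1227 Cxcl15 UMIs of ciliated cells, and the rest came from 12 cells of library 1. All of them enter the pooled values below. Thinned to 1000 UMIs, 96.3% of alveolar type 2 cells, 32.0% of club cells and 10.8% of ciliated cells had a UMI, against 0.976% of B cells. The unthinned shares were 97.6%, 60.8%, 26.2% and 4.01%, at median depths of 17050, 11963, 16409 and 4098 UMIs.

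Per 1000 UMIs of Sftpc, Cxcl15 was at 48.7 in alveolar type 2 cells. The ratio was 384 in club cells (95% interval 366 to 402) and 634 in ciliated cells (599 to 671). It was 87.1 in B cells, 69.7 in T cells, 77.2 in alveolar macrophages and 66.9 in neutrophils, and 250 in mesothelial cells, where 1 cell gave 73.6% of the Cxcl15 UMIs. Club and ciliated cells therefore held several times more Cxcl15 per Sftpc UMI than alveolar type 2 cells did.

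Cxcl1 had no named class that stood apart. It was at 115 CPM in alveolar fibroblasts, 106 in adventitial fibroblasts, 70.6 in smooth muscle cells, 63.5 in C1q macrophages, 53.5 in Arg1 and Mmp12 macrophages and 42.5 in neutrophils. The ranges over libraries of all neighbors in this order overlapped. In alveolar fibroblasts, the cells that build the alveolar wall, Cxcl1 was at 40.1 CPM in library 1, 102 in library 2, 177 in library 3 and 25.6 in library 7. Library 3 was high and library 7 low, and C1q macrophages showed the same extremes, with 60.5, 43.3, 166 and 22.3 CPM. In neutrophils it was at 56.2, 29.7, 42.9 and 52.0 CPM, but 1 cell gave 90% of the UMIs of library 1, and without the top cells the levels were 5.62, 23.4, 18.2 and 33.5 CPM.

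Lists of response genes moved with Cxcl1 in part. In alveolar fibroblasts, the 10 genes of an NF-kB response list summed to 1690, 1809, 3253 and 1432 CPM in libraries 1, 2, 3 and 7, and the 8 genes of a list induced by tissue dissociation to 4003, 5825, 10934 and 4671 CPM. Both lists were highest in library 3, as Cxcl1 and Cxcl14 were in these cells. In C1q macrophages the NF-kB list summed to 3084, 4538, 5789 and 3995 CPM and the dissociation list to 3622, 6229, 7244 and 7230 CPM. Library 3 was the highest for both lists as it was for Cxcl1 and Cxcl2. For the dissociation list, however, library 7 was near library 3, although library 7 was the lowest for Cxcl1. The part of dissociation in these levels was not tested.

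The highest class of Cxcl1 was a different one in each library. It was the C1q macrophages in library 1, the Arg1 and Mmp12 macrophages in library 2 at 173 CPM, the alveolar fibroblasts in library 3 and the neutrophils in library 7. Few cells carried the gene, with a UMI in 10.6% and 22.1% of the alveolar fibroblasts of libraries 2 and 3. Thinned to 1000 UMIs, 5.08% of alveolar fibroblasts had a UMI, against 0.139% of B cells. Unthinned, the shares were 13.3% and 0.346%, at median depths of 10837.5 and 4098 UMIs.

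Cxcl3, the third of the neighboring neutrophil attractants, was at 149 CPM in neutrophils. By library, the neutrophil level of Cxcl3 was at 78.7, 122, 118 and 225 CPM, and 71.4% of the few UMIs of library 1 came from 1 cell. The plasmacytoid dendritic cells came next with 140 CPM, but all 103 UMIs were in 1 cell of library 2. Without that cell they had none. The Arg1 and Mmp12 macrophages were at 48.4 CPM in library 1, 191 in library 2 and 30.8 in library 7, and 1 cell gave 73.2% of the UMIs of library 2. Without it that library was at 51.1 CPM, near the 40.8 CPM of library 1 without its own top cell. Thinned to 1000 UMIs, 6.85% of neutrophils and 2.37% of alveolar macrophages had a Cxcl3 UMI, and 0 of 1434 B cells, which allows a share of up to 0.257% (exact binomial). Unthinned, the shares were 9.51%, 6.97% and 0.207%, at median depths of 2778, 14344 and 4098 UMIs.

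Alveolar macrophages held Cxcl3 at 140 CPM in library 1 and at 8.87, 18.4 and 3.92 CPM in libraries 2, 3 and 7. In library 1, 20.9% of the alveolar macrophages had a UMI and the top cell gave 8.71% of the counts. Here the high library did not rest on 1 cell.

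**Figure D2:**
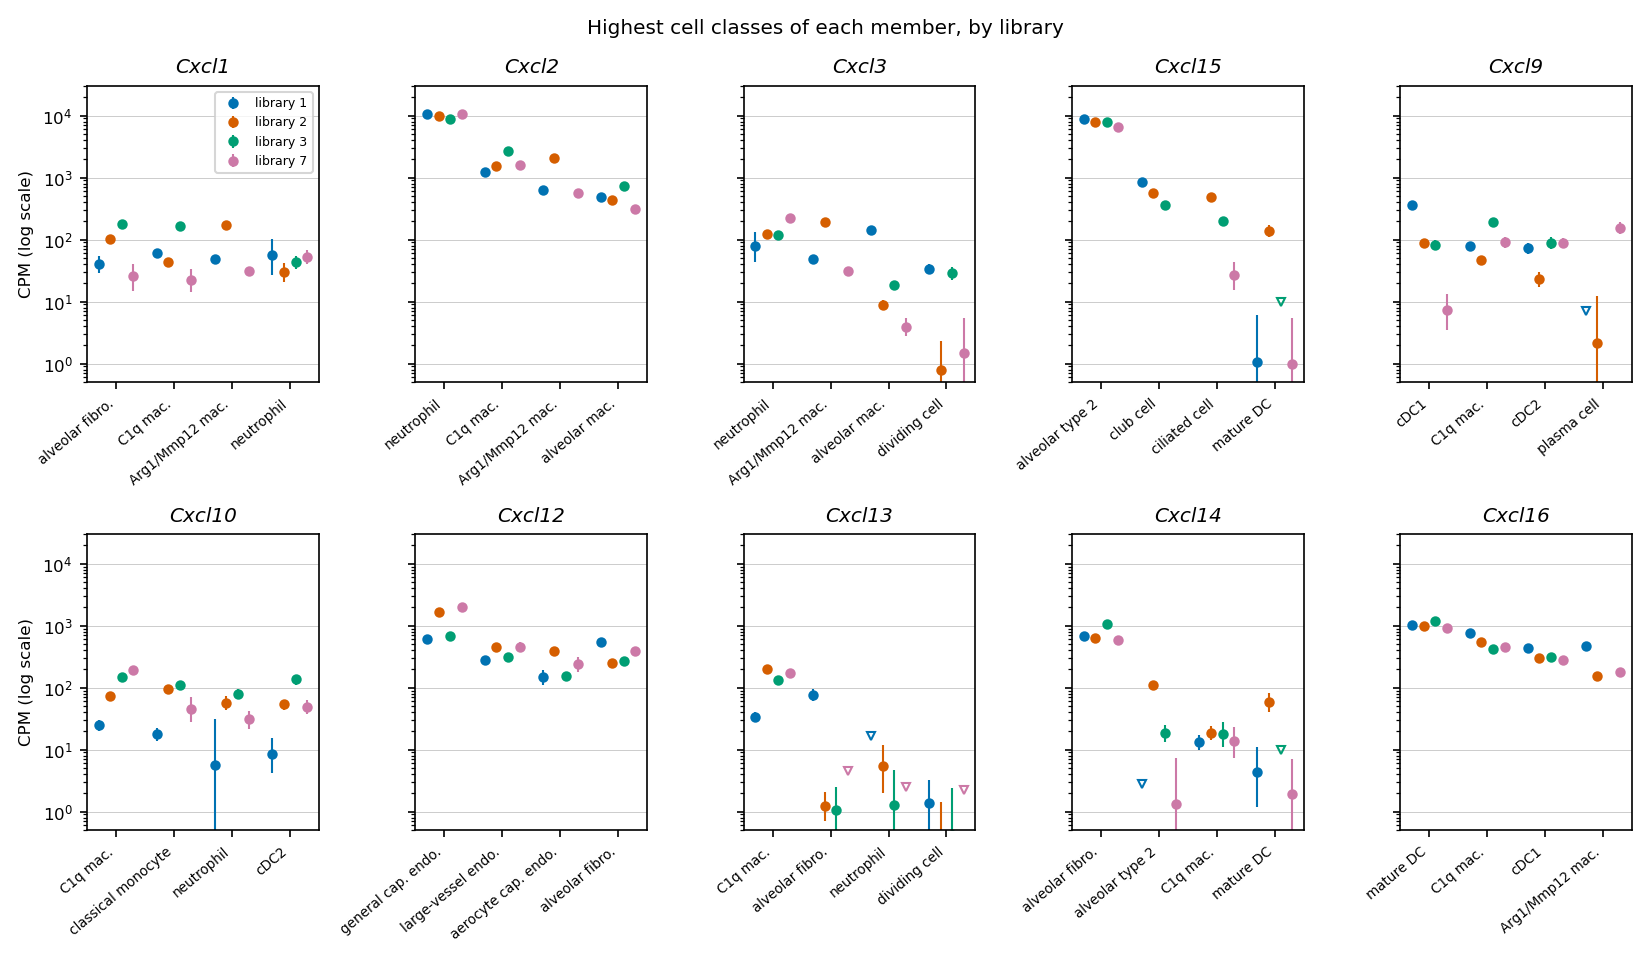
CPM (log scale) of each member in its 4 highest cell classes among those with at least 20 cells in at least 3 libraries, 1 point per library with its 95% Poisson interval, and open triangles at the limit of 3 UMIs where a library had none. Cxcl2 in neutrophils, Cxcl15 in alveolar type 2 cells and Cxcl16 in mature dendritic cells lay close together over libraries, while Cxcl9 in cDC1 ran from 7.23 to 361 CPM.

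Cxcl9 and Cxcl10, the ligands of CXCR3, were found at low levels and in few cells. Of the Cxcl9 UMIs, 36.0% were in alveolar macrophages, 14.8% in cDC1 and 14.2% in C1q macrophages. Those of Cxcl10 were spread more widely, with 15.4% in classical monocytes, 14.1% in C1q macrophages, 12.9% in alveolar fibroblasts and 7.88% in smooth muscle cells. Cxcl9 was highest in cDC1, the dendritic cells that present antigen to CD8 T cells, with 123 CPM. In cDC1, Cxcl9 was at 361 CPM in library 1, 88.6 in library 2, 82.0 in library 3 and 7.23 in library 7. Library 1 was the high one, although 46.5% of its UMIs came from 1 of 78 cells. In library 2 the top cell gave 86.9%. Without the top cell of each library, the levels were 193, 11.6, 44.7 and 3.62 CPM, and the same libraries stayed at the extremes.

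C1q macrophages held Cxcl9 at 78.1, 46.7, 195 and 91.1 CPM, and 97.8% of the UMIs of library 3 were in 1 cell. Conventional dendritic cells of the other kind, cDC2, were at 72.5, 22.9, 88.3 and 88.2 CPM. In library 3, 1 cell gave 90.8% of the cDC2 UMIs, and without the top cells the levels were 37.0, 17.4, 8.14 and 52.6 CPM, so that library 3 turned from the highest to the lowest. Classical monocytes were between 13.2 and 31.7 CPM in libraries 1, 2 and 3 and at 561 CPM in library 7. That last value was 258 UMIs of 1 cell among 46. Thinned to 1000 UMIs, 4.63% of cDC1 and 3.15% of cDC2 had a Cxcl9 UMI, against 0.0697% of B cells. The unthinned shares were 12.2%, 8.67% and 0.0691%, at median depths of 16795, 13452 and 4098 UMIs.

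Cxcl10 was highest by pooled value in smooth muscle cells, with 177 CPM, and next in adventitial fibroblasts, with 88.4 CPM. Both rested on single cells. The smooth muscle value came to 977 CPM in the 19 cells of library 1, where 1 cell gave 99.5% of the UMIs, and to 116 CPM in library 2, where 1 cell gave 79.3%. In adventitial fibroblasts of library 3, 1 cell gave 99.1% of the UMIs behind 187 CPM. Alveolar fibroblasts held Cxcl10 at 112, 27.8, 40.3 and 4.53 CPM in libraries 1, 2, 3 and 7, and 1 cell gave 88.6% of the UMIs of library 1. Without the top cells the first 3 of these levels were 12.7, 21.9 and 28.6 CPM, and library 7 had no UMI left.

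C1q macrophages and classical monocytes held Cxcl10 in more of their cells. The C1q macrophages were at 24.9, 73.8, 148 and 192 CPM in libraries 1, 2, 3 and 7, with a UMI in 9.09% to 13.3% of the cells. Without the top cells they were at 56.2, 79.9 and 102 CPM in libraries 2, 3 and 7, with library 1 still the lowest. Classical monocytes were at 17.7, 95.9, 112 and 45.7 CPM, and without the top cells at 13.5, 75.3, 76.1 and 26.1 CPM. Library 1 was the lowest in both classes, and it was the lowest also in cDC2, where Cxcl10 was at 8.49 CPM against 48.5 to 136 in the other libraries. In cDC2 of library 3, 1 cell gave 88.9% of the UMIs, and without the top cells the cDC2 levels were 4.63, 30.7, 15.1 and 17.0 CPM, with library 1 still the lowest. Thinned, 3.35% of C1q macrophages and 3.19% of classical monocytes had a Cxcl10 UMI, and 0 of 1434 B cells, with the same limit as for Cxcl3. Unthinned, the shares were 11.2%, 7.11% and 0.138%, at median depths of 10353, 9197 and 4098 UMIs.

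Alveolar macrophages, the resident phagocytes of the airspace, differed most plainly between libraries for Cxcl9. The 578 cells of library 1 were at 239 CPM (95% interval 227 to 250), and libraries 2, 3 and 7 were at 12.7, 6.04 and 2.17 CPM. In library 1, 10.9% of the cells had a UMI and the top cell gave 9.51% of the counts, whereas in library 2 a single cell gave 93.8%. Without the top cells the levels were 216, 0.795, 4.66 and 0.928 CPM. Thinned to 1000 UMIs, 1.46% of alveolar macrophages had a Cxcl9 UMI over the 4 libraries, against 0.0697% of B cells, and unthinned 3.92%, at a median depth of 14344 UMIs.

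Cxcl16, Cxcl10 and Cxcl14 were also highest in library 1 among alveolar macrophages. Cxcl16 was at 92.9 CPM there and at 23.6, 8.05 and 20.3 CPM in libraries 2, 3 and 7, while Cxcl10 was at 22.0 CPM and at 6.79, 5.40 and 1.65 CPM. Cxcl14 was at 24.1 CPM in library 1 and at 8.51, 20.1 and 2.99 CPM in the others. Cxcl1 was at 31.0, 28.3, 28.6 and 15.2 CPM, so that library 1 was highest by a small margin, and Cxcl2 was highest in library 3.

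The alveolar macrophages of library 1 lay mostly in 1 cluster, led by Plet1 and Aldoc, which held 495 of them. The marker list with the highest score in this cluster was that of the Arg1 and Mmp12 macrophages. The cluster was named by the list that ranked second, which had 2 markers among its 10 leading genes. Cxcl9 in that cluster was at 263 CPM in library 1, and at 14.8 CPM in the 885 cells of library 2 and 2.01 CPM in the 482 cells of library 7. Library 1 was thus above libraries 2 and 7 within the cluster as well. In the cluster led by Fabp1 and Acaa1b, which held 32 cells of library 1 and 636 of the 752 of library 3, Cxcl9 was at 6.33 and 4.76 CPM. The class levels of libraries 1 and 3 thus came mostly from different clusters.

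Other interferon-responsive genes were set beside these values. Gbp2, an interferon-induced GTPase, was at 171 CPM in alveolar macrophages of library 1 and at 19.0, 18.5 and 24.0 CPM in libraries 2, 3 and 7. Gbp5, of the same family, was at 17.6, 3.61, 1.59 and 5.15 CPM in the same order of libraries, and Irf1, a transcription factor, at 50.01, 31.2, 44.3 and 34.0 CPM. Library 1 was the highest for these 3 genes. Isg15, Ifit1 and Ifit3 were also highest there, but at 9.45, 8.87 and 3.34 CPM, whereas Rsad2 and Irf7 were highest in library 7, at 9.38 and 9.18 CPM against 4.94 and 6.69 CPM in library 1.

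In alveolar macrophages, the NF-kB list summed to 1106, 1334, 1454 and 1183 CPM, with library 1 lowest. Tnf, a cytokine of this list, was at 14.5, 44.2, 131 and 21.3 CPM. The dissociation list summed to 1392, 2022, 1832 and 2548 CPM, again with library 1 lowest. The markers of alveolar macrophages summed to 72437 CPM in library 1 and to between 21155 and 45848 CPM in the others.

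Markers of other cells were summed in each library's alveolar macrophage class. The list of cDC1, the class highest for Cxcl9, was detected in full and summed to 776 CPM in library 1 against 623 to 683 in the others. The cDC2 list, with 5 of 5 detected, summed to 91.0 CPM against 22.8 to 32.8 in the other libraries, and the T cell list summed to 3.34 CPM with 5 of 6 detected. The C1q macrophage list summed to 43.9 CPM in library 1, inside the 19.8 to 47.7 of the others, and that of the Arg1 and Mmp12 macrophages to 3803 CPM, inside 1044 to 5263. The part of such cells in the Cxcl9 difference was not tested.

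**Figure D3:**
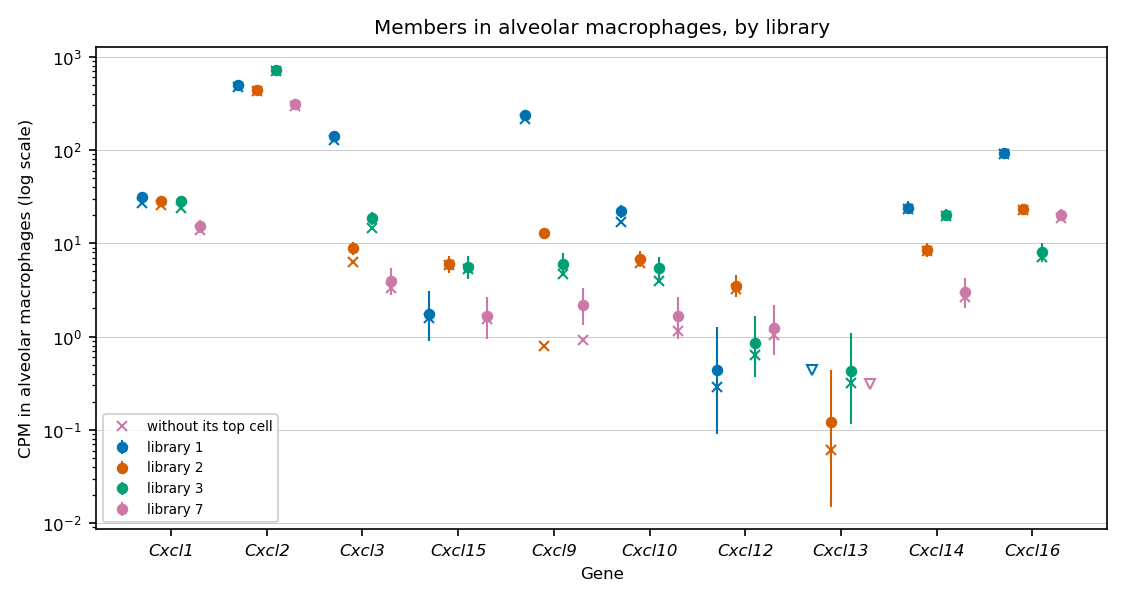
CPM (log scale) of the 10 members in alveolar macrophages by library, as circles with 95% Poisson intervals, crosses for the value without the cell with the most UMIs, and open triangles at the limit of 3 UMIs where a library had none. Library 1 was the highest for Cxcl1, Cxcl3, Cxcl9, Cxcl10, Cxcl14 and Cxcl16 with and without that cell, and library 3 was the highest for Cxcl2.

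Some pairs of members shared more alveolar macrophages than independent detection would give, although few of the 2870 cells were shared. After thinning, Cxcl9 and Cxcl10 shared 7 cells where 0.711 were expected from independent detection within each library, a ratio of 9.85 (95% interval 3.96 to 20.3). Cxcl1 and Cxcl2 shared 38 cells where 11.7 were expected, a ratio of 3.25 (2.30 to 4.46). For Cxcl2 and Cxcl3 the ratio was 2.08 (1.42 to 2.94). In neutrophils the ratio for Cxcl1 and Cxcl2 was 1.09 (0.637 to 1.75). Most neutrophils had Cxcl2, and 17 of the 18 with Cxcl1 shared it where 15.5 were expected. The ratio there could thus hardly be higher and is no contrast to that of alveolar macrophages. In cDC2, Cxcl9 and Cxcl10 shared 5 cells where 0.327 were expected, a ratio of 15.3 (4.97 to 35.7).

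Of the homeostatic members, Cxcl12 and Cxcl14 had mainly endothelial and stromal sources, whereas Cxcl13 was shared by macrophages and fibroblasts. Cxcl12, which holds CXCR4-bearing cells in tissue, had 54.0% of its UMIs in the general capillary endothelial cells, which were 10.7% of the cells. Its level there was at 613 CPM in library 1, 1648 in library 2, 687 in library 3 and 1966 in library 7. Libraries 2 and 7 were high and libraries 1 and 3 low, and no single cell gave more than 4.39% of a library's UMIs. The markers of general capillary cells summed to between 6084 and 7320 CPM and did not follow that order.

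Large-vessel endothelial cells showed a like order of libraries for Cxcl12, at 275, 454, 313 and 450 CPM. Aerocytes, the large capillary cells of gas exchange, were lowest in library 1 at 146 CPM and highest in library 2 at 385 CPM. Alveolar fibroblasts went another way, with 553 CPM in library 1 as their highest and 251 in library 2 as their lowest. Pericytes, which wrap capillaries, were at 186 CPM in library 2 and 577 in library 3.

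The platelet class came second for Cxcl12 at 723 CPM, but all 6 general capillary markers were detected in it, summing to 2801 CPM in library 2 and 4540 in library 3. Its platelet markers summed to 316 and 594 CPM. The part of capillary RNA in that value was not tested. Thinned to 1000 UMIs, 52.5% of general capillary cells and 18.9% of alveolar fibroblasts had a Cxcl12 UMI, against 1.53% of B cells. The unthinned shares were 77.4%, 63.8% and 3.18%, at median depths of 4550, 10837.5 and 4098 UMIs.

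Cxcl14, a chemokine of epithelia and stroma, had 86.9% of its UMIs in alveolar fibroblasts, which were 7.89% of the cells. It was at 669 CPM in library 1, 638 in library 2, 1058 in library 3 and 579 in library 7, with a UMI in 78.0% to 89.3% of the cells. Library 3 was the highest. Pericytes came next with 281 CPM in library 2 and 329 in library 3, below every library of the alveolar fibroblasts. Alveolar type 2 cells reached 110 CPM in library 2, of which 1 cell gave 90.6%. Thinned, 43.6% of alveolar fibroblasts and 28.8% of pericytes had a Cxcl14 UMI, against 0.0697% of B cells. Unthinned, these shares were 83.2%, 60.5% and 0.760%, at median depths of 10837.5, 5200 and 4098 UMIs.

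Cxcl13, which draws B cells to lymphoid tissue through CXCR5, was found in 157 cells in all, and 10 cells held 55.5% of its UMIs. C1q macrophages held 58.7% of the Cxcl13 UMIs and adventitial fibroblasts 26.8%. The unnamed cluster of 20 cells led by Prg4 and Cd5l, given above for Cxcl1, held 4.86%. The pooled level was highest in adventitial fibroblasts, which line vessels and airways, with 355 CPM in library 2 and 55.7 in library 3. In both, 1 cell gave most of the UMIs, 74.5% and 81.0%. C1q macrophages were at 33.5, 199, 134 and 170 CPM in libraries 1, 2, 3 and 7. In library 7 a single cell gave 77.7% of their UMIs, and in libraries 2 and 3 the top cell gave 18.6% and 39.1%. Without the top cells, C1q macrophages were at 23.8, 162, 81.6 and 37.8 CPM and adventitial fibroblasts at 90.3 and 10.6 CPM, so that the order of both classes turned. Thinned, 4.38% of C1q macrophages had a Cxcl13 UMI, against 0.0697% of B cells, and unthinned 7.28% against 0.138%.

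Cxcl16, a membrane-bound chemokine and scavenger receptor that is shed by ADAM10 and ADAM17, was highest in antigen-presenting cells. Mature dendritic cells, with the migration receptor Ccr7, held it at 1008 CPM in library 1, 976 in library 2, 1169 in library 3 and 909 in library 7. Between 95.7% and 100% of them had a UMI. C1q macrophages were next with 755, 539, 426 and 450 CPM, below every library of the mature dendritic cells.

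In cDC1, Cxcl16 was at 431, 303, 314 and 277 CPM, and in cDC2 at 238, 225, 251 and 246 CPM. The Arg1 and Mmp12 macrophages were at 470 CPM in library 1, 152 in library 2 and 182 in library 7. Library 1 was the highest in these macrophages, in C1q macrophages, in cDC1 and in alveolar macrophages, but not in mature dendritic cells or cDC2. Thinned, 63.0% of mature dendritic cells had a Cxcl16 UMI, against 0.209% of B cells. The unthinned shares were 97.3% and 1.31%, at median depths of 11965 and 4098 UMIs.

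Over all members, 126 pairs of a member and a class had at least 50 UMIs in libraries with at least 20 cells of the class. Of these, 76 (60.3%) had a highest library at least 4 times the lowest, against 4.63% of the pairs of all genes. The counts were 3 of 3 pairs for Cxcl13, 15 of 16 for Cxcl10, 8 of 9 for Cxcl9 and 7 of 8 for Cxcl3. They were 9 of 13 for Cxcl15, 7 of 11 for Cxcl1 and 5 of 9 for Cxcl14. For Cxcl2 the count was 13 of 27, for Cxcl12 5 of 14 and for Cxcl16 4 of 16. Called pairs include classes far below the source cells, such as Cxcl15 in B cells at 1.73 to 11.7 CPM. The part of free RNA in such pairs was not tested. The highest library was 2 in 27 of the 76, 3 in 25, 1 in 17 and 7 in 7.

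Single cells carried part of this spread. In 31 of the 76 pairs, 1 cell gave at least 50% of the UMIs of the highest library. Without the cell with the most UMIs of each gene, class and library, 97 pairs could still be read and 55 met the rule, against 5.85% of the pairs of all genes treated in the same way. Of the 76 pairs, 50 could still be read and 47 still met it. The rule for restriction was met by the same number of members, 2, against 10.6% of all genes. The background pools genes of all levels, and the members were not matched to it.

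**Figure D4:**
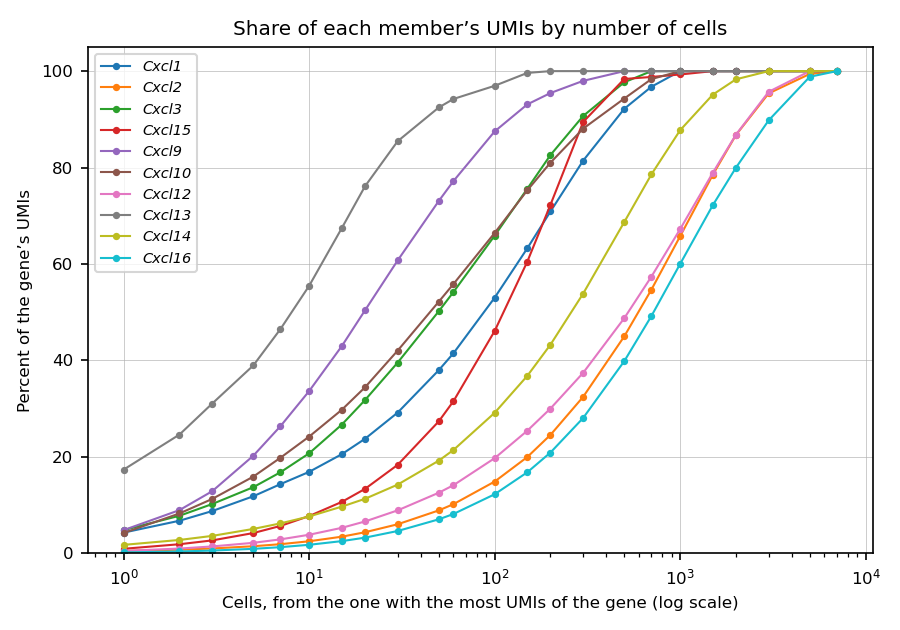
Percent of each member's UMIs (y axis) held by the cells with the most UMIs of that gene (x axis, number of cells on a log scale). The top 10 cells held 55.5% of the Cxcl13 UMIs and 33.7% of those of Cxcl9, but 1.78% of those of Cxcl16 and 2.51% of those of Cxcl2.

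The members differed in how far their RNA was concentrated in a few cells. The top 10 cells held 55.5% of the UMIs of Cxcl13, 33.7% of Cxcl9, 24.2% of Cxcl10, 20.7% of Cxcl3 and 16.9% of Cxcl1. The share was 7.74% for Cxcl15, 7.66% for Cxcl14, 3.86% for Cxcl12, 2.51% for Cxcl2 and 1.78% for Cxcl16. Cxcl2 had a UMI in 27.0% of all cells and Cxcl16 in 25.2%, while Cxcl9 had one in 1.96% and Cxcl13 in 0.753%. A single cell reached 325 UMIs of Cxcl13 and 258 of Cxcl9.

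The receptors were read in the same classes. Cxcr2, which binds the ELR chemokines, was at 1422, 1072, 1256 and 2309 CPM in neutrophils of libraries 1, 2, 3 and 7, so that the class with the highest Cxcl2 also held the highest Cxcr2 of any named class. Cxcr1 was at 34.8 CPM in neutrophils. Cxcr4, the receptor of Cxcl12, was at 1106 CPM in neutrophils, 810 in eosinophils and 514 in nonclassical monocytes. The eosinophil class held neutrophil markers at a high level, as given above, and the part of neutrophil RNA in its Cxcr4 was not tested.

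Cxcr3, the receptor of Cxcl9 and Cxcl10, was at 85.7 CPM in T cells and 46.6 in cDC1, the class that was also highest for Cxcl9. Cxcr5, which answers to Cxcl13, was at 150, 131, 167 and 189 CPM in B cells of libraries 1, 2, 3 and 7. Cxcr6, the receptor of Cxcl16, was at 620 CPM in ILC2, the innate lymphoid cells of type 2 responses, and 117 CPM in T cells. It was at 695 CPM in an unnamed cluster of 314 cells whose parts had Icos, Il17a or Foxp3, genes of lymphocytes, among their leading genes.

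Ackr3, a scavenger of Cxcl12, was at 979, 603, 655 and 510 CPM in large-vessel endothelial cells, 384 CPM in adventitial fibroblasts and 136 CPM in the general capillary cells that were highest for Cxcl12. Ackr1, which carries chemokines across venules, was at 70.0 CPM in large-vessel cells. The sheddases of Cxcl16 were not at their highest in mature dendritic cells, with Adam10 at 385 CPM in lymphatic endothelial cells and Adam17 at 159 CPM in the Arg1 and Mmp12 macrophages.

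Of the other CXC ligands listed, Pf4 was at 1178 CPM in C1q macrophages and 694 in the platelet class, and Ppbp at 467 CPM in the platelet class. Cxcl5, another ELR chemokine, was at 85.1 CPM in club cells. Cxcl17, a mucosal chemokine, was at 352 CPM in ciliated cells and 188 in club cells. Cxcl11 was not analysed here.

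**Figure D5:**
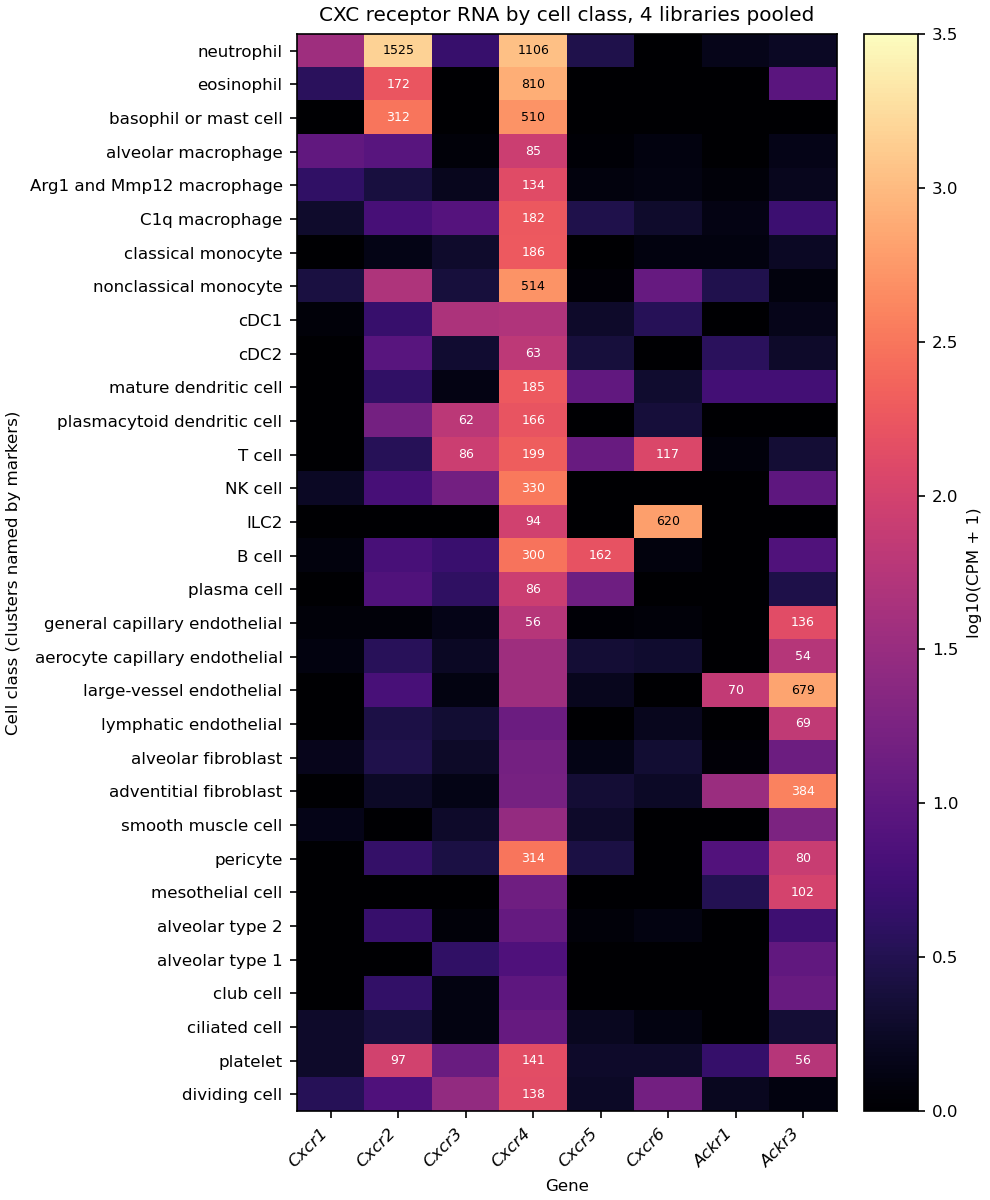
Level of each CXC receptor (columns) in each named cell class (rows), as the color of log10(CPM + 1) over the pooled UMIs of 4 libraries, with CPM printed at or above 50. Cxcr2 reached 1525 CPM in neutrophils, Cxcr5 reached 162 CPM in B cells and Cxcr6 reached 620 CPM in ILC2.

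The genes most like each member were sought over 98 pools of a class and a library, by the Pearson correlation of log2(CPM + 1) among 12155 genes. The pools share libraries and depths, so that these values are descriptions. Cxcl12 was most like Prex2 (0.948) and Hmcn1 (0.947), and Cxcl15 was most like Sftpa1 (0.915) and Sftpd (0.908), genes of surfactant proteins. Cxcl2 was nearest to Lilrb4a (0.843) and Ccr1 (0.840), and Cxcl14 to Col13a1 (0.828), which is also a marker in the list of alveolar fibroblasts. For Cxcl16 the nearest gene was Zmynd15 (0.828), which overlaps it on the other strand, and reads of these genes may not be told apart, since no source used here gives the strand setting of the counting.

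The remaining members had weaker neighbors. Cxcl9 was nearest to Slamf8 (0.771) and Batf3 (0.738), the latter a transcription factor of cDC1. Cxcl13 was nearest to Col14a1 (0.708), Cxcl1 to Igf1 (0.700) and Cxcl3 to Rnf149 (0.691). Cxcl10 had the lowest best value, with Ifrd1 at 0.562 and Ccl2 at 0.529. Cxcl10 overlaps Art3 on the other strand, and Cxcl15 overlaps Gm24322.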

How the data were processed

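The deposited matrix holds raw UMI counts, whole numbers for each gene in each cell, as the authors obtained them from Cell Ranger. The submitters' notes name Cell Ranger, STAR and mm10, and the matrix header gives version 3.1.0. The methods state that reads were down-sampled when libraries were combined, which lowers the depth of the deeper ones. The labels name kit v3 and the methods another version. Gene positions are those of GENCODE M21.

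Cells of libraries 1, 2, 3 and 7 with at most 10% mitochondrial UMIs were kept, with 33298803 to 76435633 UMIs per library. Counts were scaled to 10000 per cell, 2000 variable genes without the members gave 30 components, mutual nearest neighbors (20) served to align the libraries, and clusters were found by the Leiden method at a resolution of 0.8 (leidenalg 0.10.2, python-igraph 0.11.9, Scanpy 1.11.5, NumPy 2.4.6, SciPy 1.17.1, pandas 2.3.3, scikit-learn 1.9.0, Python 3.11.15, matplotlib 3.10.9). Mixed or unnamed clusters of at least 100 cells were split once more. A name needed at least 3 markers in 10% of the cells and at least 1 of its own among the 10 genes of highest fold. The class that ranked second by marker score could also give the name, with at least 2 of its own markers there. This rule was fixed once the clusters had been seen. Classes of at least 30 cells entered the class comparison. The members, marker lists and gene lists were chosen with earlier results of these data known, and all 10 members are named. A gene of the interferon list, and the sum of that list, are not reported here. Doublets were kept in the main values. Scrublet marked 106, 429, 168 and 25 cells.

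CPM was the UMIs of a gene per 1000000 UMIs of the class, over all libraries or in 1 library, with exact 95% intervals, and the limit for a count of 0 was put at 3 UMIs. On simulated counts of 31053 genes, a fold of 8 was found for 99 of 100 genes in the class call and 99 of 99 in the library call. Of the simulated pairs with no difference, 0.875% were called. These counts were Poisson draws for each class and library, without spread between cells. The 0.875% is therefore not a rate of false calls for members whose UMIs lie in few cells.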

Additional observations from a re-analysis of the deposited data

Results flagged for a closer look

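Of the 10 members, 5 had UMIs in libraries 4, 5 and 6, which no comparison used, above the level that a count of 3 allows. Pooled over these libraries, Cxcl10 was at 5.44 CPM, Cxcl16 at 2.93 CPM, Cxcl9 at 0.588 CPM, Cxcl2 at 0.501 CPM and Cxcl3 at 0.0654 CPM. In the lung libraries, Cxcl10 was at 13.5 to 36.5 CPM and Cxcl2 at 412 to 831 CPM. Of the 54 Cxcl9 UMIs, 46 came from 2 cells of library 6. Cxcl1, Cxcl12, Cxcl13 and Cxcl15 had no UMI there and Cxcl14 had 2.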

How the results depend on the processing

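The highest class was the same for at least 6 of the 10 members under every alternative run, and for 6 by the mean of the library levels. Restricted members numbered 2 in the main setting. They numbered 1 with mitochondrial genes at most 5%, with no alignment of libraries and with the mean of the library levels. By that mean, Cxcl2 was the member that no longer met the rule, with eosinophils at 4856 and 1390 CPM in libraries 1 and 7. Pairs varying over libraries numbered 76 of 126, against 50 of 86 with mitochondrial genes at most 5% and 17 of 40 with cells thinned to 1000 UMIs. Leaving out a library in turn gave 40 to 55 pairs, 40 of 85 without library 2 and 47 of 91 without library 3, and 7 to 9 members with the same highest class. Fewer cells or libraries also leave fewer pairs to read.

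The log2 ratio of the highest class over the next, at or under 1 in the main setting for the members named here, changed sign for 5 members. For Cxcl3 in neutrophils over plasmacytoid dendritic cells it was -0.036 within 2 SD of UMIs and genes, -0.081 with no alignment and -1.23 by the mean of libraries, and leaving out a library gave -0.55 to 7.33, the highest without library 2. For Cxcl1 in alveolar over adventitial fibroblasts it was -2.38 without Scrublet calls, -0.76 at a resolution of 1.5 and -0.31 by the mean of libraries. For Cxcl13 in adventitial fibroblasts over C1q macrophages it was -1.18 without Scrublet calls, -0.21 after thinning, -0.71 without the top cells, and -0.55 without library 2 to 1.44 without library 3. For Cxcl10 in smooth muscle cells over adventitial fibroblasts it was -4.16 at a resolution of 0.4 and -0.69 by the mean of libraries, and for Cxcl9 in cDC1 over C1q macrophages it ran from -0.40 without library 1 to 0.97 without library 3. The cause was not tested. The top cells, the second split and the unnamed clusters were alternatives chosen after seeing the data.

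No paired analysis was possible because the replicate numbers of the labels appear in no column of the matrix. The levels of Cxcl9, Cxcl10, Cxcl13 and Cxcl3 rest on few cells, and the Poisson intervals do not cover the spread between cells or mice.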
